A study of Mus musculus with 6 samples.

Results

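Heat shock protein and cochaperone genes were examined in the RNA of mouse pancreatic islets, the clusters of hormone-producing cells in which beta cells make insulin and alpha cells make glucagon. The genes came from a written list of HSP70, HSP110 and HSP90 chaperones, small heat shock proteins, J-domain and BAG cochaperones, chaperonin subunits and heat shock factors, and all 37 listed genes were found among the 55536 genes of the count table. The label given to the list, cytosolic, does not hold for all of them: Hspa9, Hspd1 and Hspe1 encode proteins of the mitochondrial matrix, and Hspa13 encodes a microsomal member of the HSP70 family. Islets came from C57B1/6J mice, as the design text spells the strain, of the genotypes Klf4+/+;Gcg-iCre (control, 3 libraries) and Klf4fl/fl;Gcg-iCre (knockout, 3 libraries). Both groups carry Gcg-iCre, a Cre recombinase driven by the glucagon gene, so the floxed Klf4 alleles are meant to be cut in alpha cells, while whole islets were sequenced. The labels give no age, sex or treatment, and they do not say whether the libraries come from separate mice; p-values therefore measure the spread between these libraries, which may be technical.

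Chaperones bind unfolded or partly folded proteins and release them after cycles of ATP use. HSP70 is loaded with substrate by J-domain proteins and emptied by nucleotide exchange factors of the HSP110 and BAG families, HSP90 finishes the folding of kinases and steroid receptors with the help of its own cochaperones, and the ring-shaped CCT chaperonin folds actin and tubulin. When unfolded proteins accumulate, the transcription factor HSF1 is released from chaperones and binds heat shock elements, repeats of the pentamer nGAAn in alternating orientation, in the promoters of the inducible members. Beta cells in particular make large amounts of secreted protein and depend on chaperones.

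Values of single libraries are given throughout in the order of replicates 1, 2 and 3 of each genotype. The libraries held 101277200 to 110243918 counts. Klf4 itself had 3148, 2879 and 2015 normalized counts (counts divided by the size factor of the library) in the controls and 2340, 2540 and 2277 in the knockouts, and the groups overlapped, so the whole-islet count does not check the labels (log2 fold change -0.17 ± 0.15, SE; adjusted p = 0.774 in DESeq2, and 0.00568 without control replicate 3). Xist stood at 77938 to 108105 normalized counts in the control libraries and at 12.4 to 30.2 in the knockout libraries, and Ddx3y, on the Y chromosome, at 0 counts in each control library and 5599 to 6265 in the knockout libraries, so sex and genotype cannot be told apart. The islet markers were present: the summed level of 9 beta-cell genes, made up mostly of Ins1 and Ins2, was 18741452 to 21844448 in controls and 20950237 to 21279380 in knockouts. Of these 9, Nkx6-1 fell in DESeq2 (adjusted p = 0.0314, and 0.361 in edgeR), 4 had an unadjusted p under 0.05 with a lower knockout mean, and for 3 (Nkx6-1, Mafa and Slc2a2) every knockout lay below every control. Marker sums that stood apart between the groups were those of 9 alpha-cell genes (4152325 to 5959782 in controls, 3089484 to 3789162 in knockouts), 8 acinar genes (532847 to 1075065, then 1352521 to 1916106), 6 fibroblast genes (45917 to 61531, then 90438 to 97229), 6 duct genes (25812 to 28031, then 30284 to 34228) and 5 lymphocyte genes (2095 to 2277, then 1886 to 1924). The alpha-cell sum is almost all Gcg: of the 9 genes 6 had a log2 fold change below 0 and 4 fell in DESeq2, whereas Tm4sf4 rose (0.27, adjusted p = 0.00540 in DESeq2 and 0.234 in edgeR). The sum of 6 macrophage genes overlapped; C1qa, its most abundant gene, had a log2 fold change of -0.27 that did not pass (DESeq2 adjusted p = 0.348), whereas each knockout lay above each control for 4 of the 6, and Cd68 and C1qb rose in DESeq2 (adjusted p = 0.0416 and 0.00854, and in edgeR 0.314 and 0.203). The sum of 6 hepatocyte genes was 427 to 641 in controls and 76973, 2993 and 437 in the knockouts, so knockout replicate 1 stood apart in them. Over all genes tested, 0.657% fell and 1.53% rose in DESeq2, and 5.03% had an unadjusted p under 0.05 with a lower mean. Every knockout lay below every control for 8.23% of all genes and above for 9.06%. In a bulk sample, fewer cells of a type and less RNA per cell cannot be told apart. The part of these markers in the results below was not tested.

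Promoters of the listed genes were searched for exact matches to heat shock elements. RefSeq windows of 250 bases before to 50 bases after a start site (GRCm38.p6) were matched by symbol for 31 of the 37 genes. Hspa8, Hspa9, Hspa13, Hsp90aa1, Hsp90ab1 and Hsf1 had no window, so the most abundant genes are not covered. A paired element was searched as GAANNTTC or TTCNNGAA, each its own reverse complement, and a triple element as a paired element followed by a further NNGAA or NNTTC that keeps the alternation, so that every triple element also holds paired ones. At least 1 window held a paired element in 17 of the 31 genes (54.8%), against 17.0% of all 27025 genes with a window, and a triple element in 5 (16.1%), against 0.662%. The genes are not all independent. The 17 include the near-copy promoters of Hspa1a and Hspa1b, and both counts include Hspd1 and Hspe1, whose windows overlap. The CACCC box bound by Kruppel-like factors (CACCC or GGGTG), a short motif, was in 71.0% of the 31 genes and 59.8% of all genes. These are exact matches of letters, not measured binding. Elements with a changed base, or outside the windows, are missed, so no match does not mean no element.

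Printed first are the 150 bases before a start site, with the letters of paired elements in capitals. They are those of Dnajb1 and Dnajb4, the 2 genes with the largest decreases below, and of Hspa1a, Hspa1b and Hspb1. All of these but Dnajb4 are in the subset set apart as heat-inducible below. Strands and coordinates are chr8:83608025-83608174 (plus), chr3:152193846-152193995 (minus, the second of 2 start sites), chr17:34972157-34972306 (minus), chr17:34959239-34959388 (minus) and chr5:135887769-135887918 (plus), in this order.
Dnajb1: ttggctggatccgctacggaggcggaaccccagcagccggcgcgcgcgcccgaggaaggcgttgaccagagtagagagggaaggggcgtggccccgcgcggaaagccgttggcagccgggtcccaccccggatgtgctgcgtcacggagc
Dnajb4: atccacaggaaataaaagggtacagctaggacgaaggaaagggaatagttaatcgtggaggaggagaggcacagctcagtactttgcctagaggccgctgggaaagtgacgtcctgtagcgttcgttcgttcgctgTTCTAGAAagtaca
Hspa1a: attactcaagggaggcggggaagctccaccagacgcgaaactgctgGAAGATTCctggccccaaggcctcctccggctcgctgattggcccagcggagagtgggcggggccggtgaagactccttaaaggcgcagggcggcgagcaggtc
Hspa1b: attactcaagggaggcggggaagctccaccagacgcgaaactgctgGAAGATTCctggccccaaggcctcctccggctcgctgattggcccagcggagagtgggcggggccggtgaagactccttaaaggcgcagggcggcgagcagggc
Hspb1: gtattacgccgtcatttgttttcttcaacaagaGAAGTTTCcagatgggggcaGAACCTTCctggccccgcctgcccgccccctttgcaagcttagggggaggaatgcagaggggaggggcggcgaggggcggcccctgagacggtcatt

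The Dnajb1 stretch held no match, nor did its other window, which does not mean that Dnajb1 lacks an element. The other Dnajb4 window, near the annotated 5′ end of the gene, held no paired element either, and of the 3 Dnaja1 windows only 1 held a match. The Hspa1a and Hspa1b promoters are near copies and differ at 3 of 250 bases before the start. Shorter sites of 30 bases are shown for Dnaja1, the third gene that fell, and for 5 genes that carry elements of different length: chr4:40722333-40722362 (plus), chr5:29735843-29735872 (plus), chr9:18292259-18292288 (plus), chr5:149636287-149636316 (minus), chr1:55088053-55088082 (plus) and chr7:128523603-128523632 (plus), in the order printed, with the element in capitals.
Dnaja1: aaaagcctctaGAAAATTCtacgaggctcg
Dnajb6: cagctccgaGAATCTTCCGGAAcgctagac
Chordc1: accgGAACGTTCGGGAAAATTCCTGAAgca
Hsph1: agtaaaatgctgcagaTTCTGGAAAGTTCt
Hspe1: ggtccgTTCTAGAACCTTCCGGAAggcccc
Bag3: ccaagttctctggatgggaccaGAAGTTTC

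Of the 6 sites printed, the run of alternating pentamers was longest in Chordc1, where it took 23 bases from position -4 to 19 counted from the start site. The whole Chordc1 window held 5 paired matches. The Hspe1 site, at -89 to -72, also lies in a window of Hspd1, the divergent neighbour that encodes the partner chaperonin.

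Across the 37 genes, most knockout means lay slightly below the control means. With DESeq2 and a Benjamini-Hochberg adjusted p under 0.05, Dnajb1, Dnajb4 and Dnaja1 fell, none rose, and 34 did not pass. Among all 17797 genes given an adjusted p, 2.19% passed, 0.657% in the lower and 1.53% in the higher direction, against 8.11% of the listed genes, all lower. The log2 fold change was below 0 for 32 of the 37 genes (86.5%), against 51.6% of all genes tested, and its median was -0.13, against -0.01 over all genes tested. Each knockout library lay below each control library for 13 of the 37 (35.1%), against 8.23% of all genes, and above for 1 (Hspb8), against 9.06%. An unadjusted p under 0.05 with a lower knockout mean was reached by 10 of the 37 (27.0%), against 5.03% of all genes, and with a higher knockout mean by 0, against 6.51%. These counts describe a list chosen with earlier results of these data known.

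**Figure D1:**
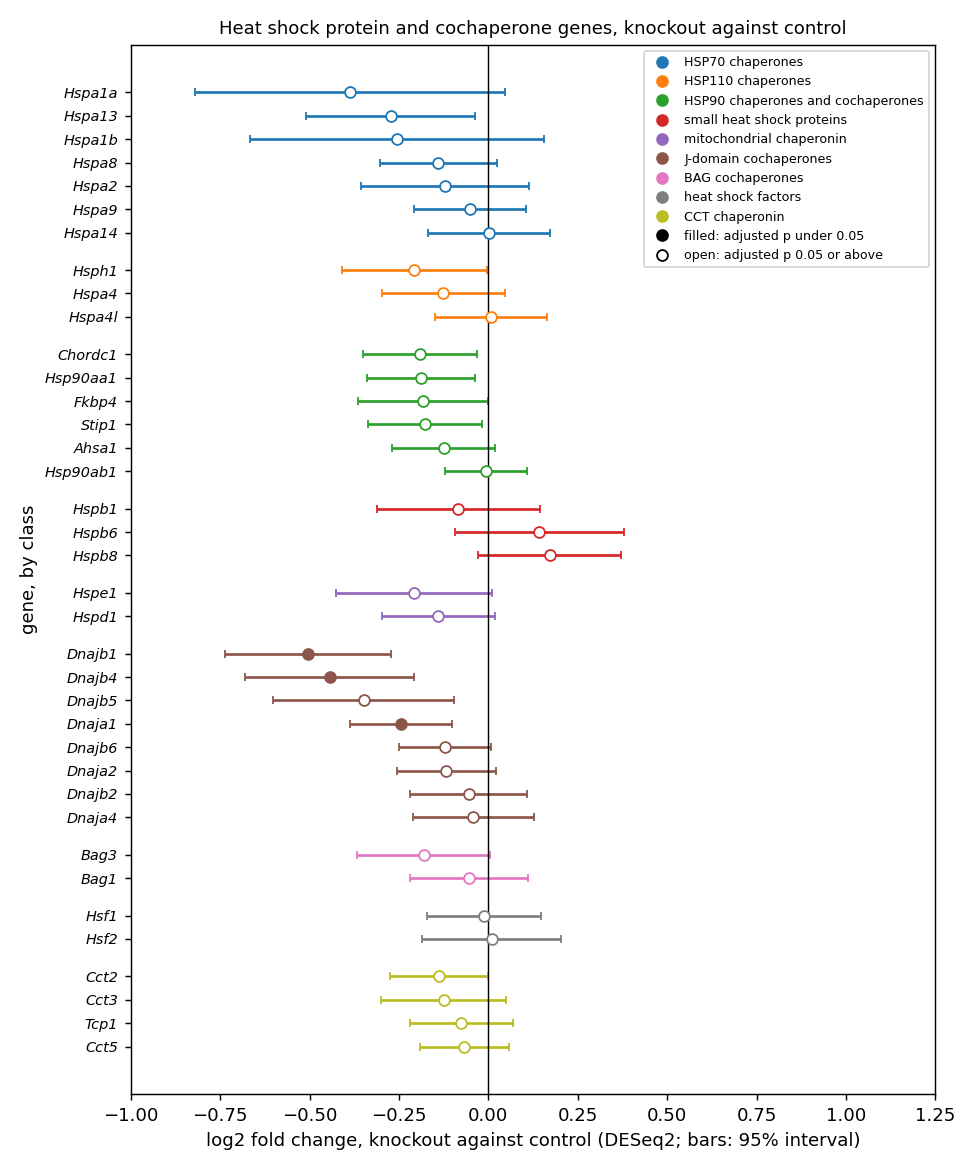
Log2 fold change of each of the 37 genes, knockout against control, on the x axis, with 95% intervals from DESeq2, grouped by class on the y axis; filled points passed an adjusted p of 0.05. The 3 filled points are J-domain cochaperones, and 32 of the 37 points lie below 0.

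The 3 calls were not stable. Counts were simulated in a single draw, with the spread estimated from these libraries. The share of false calls was above the nominal level in both DESeq2 and edgeR, and higher in DESeq2. The adjusted p-values printed here may thus be too small. The edgeR quasi-likelihood test called 0 of the 37 genes, against 0.0198% of all genes in the lower direction, with 10 of the 37 at an unadjusted p under 0.05 and a lower mean, against 3.78% of all genes. DESeq2 called 0 without control replicate 1 (all genes, lower: 0.908%) and 0 without knockout replicate 3 (0.324%), where 10 and 9 of the 37 had an unadjusted p under 0.05 and a lower mean. It called Dnajb1 alone without knockout replicate 1 (0.264%) or knockout replicate 2 (0.711%), and without control replicate 2 it called Hsph1 and Hsp90aa1 and none of the 3 (0.438%). Without control replicate 3 it called the 3 and Chordc1, where 2.48% of all genes passed in the lower direction. With all libraries, 3 were called with TMM factors (0.663%) or a stricter count filter (0.674%), and Dnajb1 and Dnajb4 with total-count factors (0.612%), with no count filter (0.62%) or with no independent filtering (0.398%). The number with a log2 fold change below 0 was 30 to 33 in all 13 alternative fits, and for 27 genes it was below 0 in each of them.

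The J-domain cochaperones, which deliver substrates to HSP70 and trigger its ATP hydrolysis, held all the genes that passed: 3 of 8 fell, against 0.657% of all genes, and the other 5 did not pass. All 8 had a log2 fold change below 0, against 51.6% of all genes, and every knockout lay below every control for 6, against 8.23%. The median was -0.18, against -0.01 over all genes tested. These counts cover the 8 listed genes, not every J-domain gene. Among Dnaj genes of the further list below, Dnajb12 had 0.08, with every knockout above every control, and Dnajb14 0.05. Dnaja3 and Dnajc7 had -0.04 each, Dnajc6 -0.07, and Dnajc2, Dnajc5 and Dnajc9 -0.08 each, with overlapping groups. Dnajc8 had -0.15, with every knockout below every control. None of these further genes passed in DESeq2.

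Dnajb1 (ENSMUSG00000005483, chromosome 8, 83608193 to 83612653, plus strand, GRCm38) encodes the inducible HSP40 that works with HSP70 in protein disaggregation and in shutting off HSF1. It gave 5052, 5063 and 3768 normalized counts in the controls against 3352, 3320 and 3117 in the knockouts. Every knockout library lay below every control library, and control replicate 3 lay closer to the knockouts than to the other controls. The mean was 4628 ± 745 in controls, and 3263 ± 127 in knockouts (SD over 3 libraries). The log2 fold change was -0.50 ± 0.12 (SE; adjusted p = 0.00261 in DESeq2), a change of -29.5% with a 95% confidence interval of -40.0% to -17.2%. The adjusted p was 0.196 in edgeR, 0.0575 without control replicate 1, 0.0776 without control replicate 2 and 0.0609 without knockout replicate 3, and ran from 4.66e-17 to 0.196 over the 13 alternatives.

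Dnajb4 (ENSMUSG00000028035, chromosome 3, 152178511 to 152210302, minus strand) encodes a close relative of DNAJB1. Its normalized counts were 4235, 4992 and 3611 in the controls and 3372, 3133 and 2938 in the knockouts. The groups did not overlap, and as for Dnajb1 the lowest control was replicate 3. Dnajb4 fell from 4279 ± 692 to 3148 ± 217 (SD over 3 libraries), which on the log2 scale was -0.44 ± 0.12 (SE; adjusted p = 0.0168 in DESeq2). The adjusted p was 0.263 in edgeR, and without control replicate 1 or 2 or knockout replicate 1, 2 or 3 it was 0.082, 0.164, 0.064, 0.121 and 0.192, in that order; over the 13 alternatives it ran from 9.75e-06 to 0.263. Fold changes without each of the 6 libraries ran from -0.55 to -0.32.

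Dnaja1 (ENSMUSG00000028410, chromosome 4, 40722150 to 40737149, plus strand) encodes the abundant type I HSP40 of the cytosol. It had 16520, 15854 and 14605 normalized counts in the controls against 12976, 13167 and 13549 in the knockouts. The knockout libraries lay close together and below all controls, with a log2 fold change of -0.24 ± 0.07 (SE; in DESeq2 the adjusted p was 0.0416). This call was lost in 10 of 13 alternatives, in edgeR (0.306) and without control replicate 1 or 2 or knockout replicate 1, 2 or 3 (0.123, 0.158, 0.364, 0.153 and 0.0997, in that order), and the DESeq2 adjusted p ran from 1.21e-05 to 0.364. Exons of Dnaja1 overlap those of Smu1 and Gm6297 on the opposite strand over 857 bases, and 20.6% of the 50-base words of its transcripts occur in transcripts of other genes, so its count is uncertain; for Dnajb1 that share was 0.412% and for Dnajb4 0%, with no overlapping exon.

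Of the 5 other J-domain genes, Dnajb5 had the largest difference. It gave 829, 973 and 937 normalized counts in the controls against 650, 794 and 709 in the knockouts, again without overlap, and its log2 fold change of -0.35 ± 0.13 (SE) did not pass (DESeq2 adjusted p = 0.157). Dnajb6, which suppresses the aggregation of polyglutamine proteins, and Dnaja2 also had every knockout below every control, with log2 fold changes of -0.12 each. The groups overlapped for Dnajb2 (-0.05) and Dnaja4 (-0.04), and the Dnaja4 count shares 1581 bases of exon with Wdr61 on the opposite strand.

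**Figure D2:**
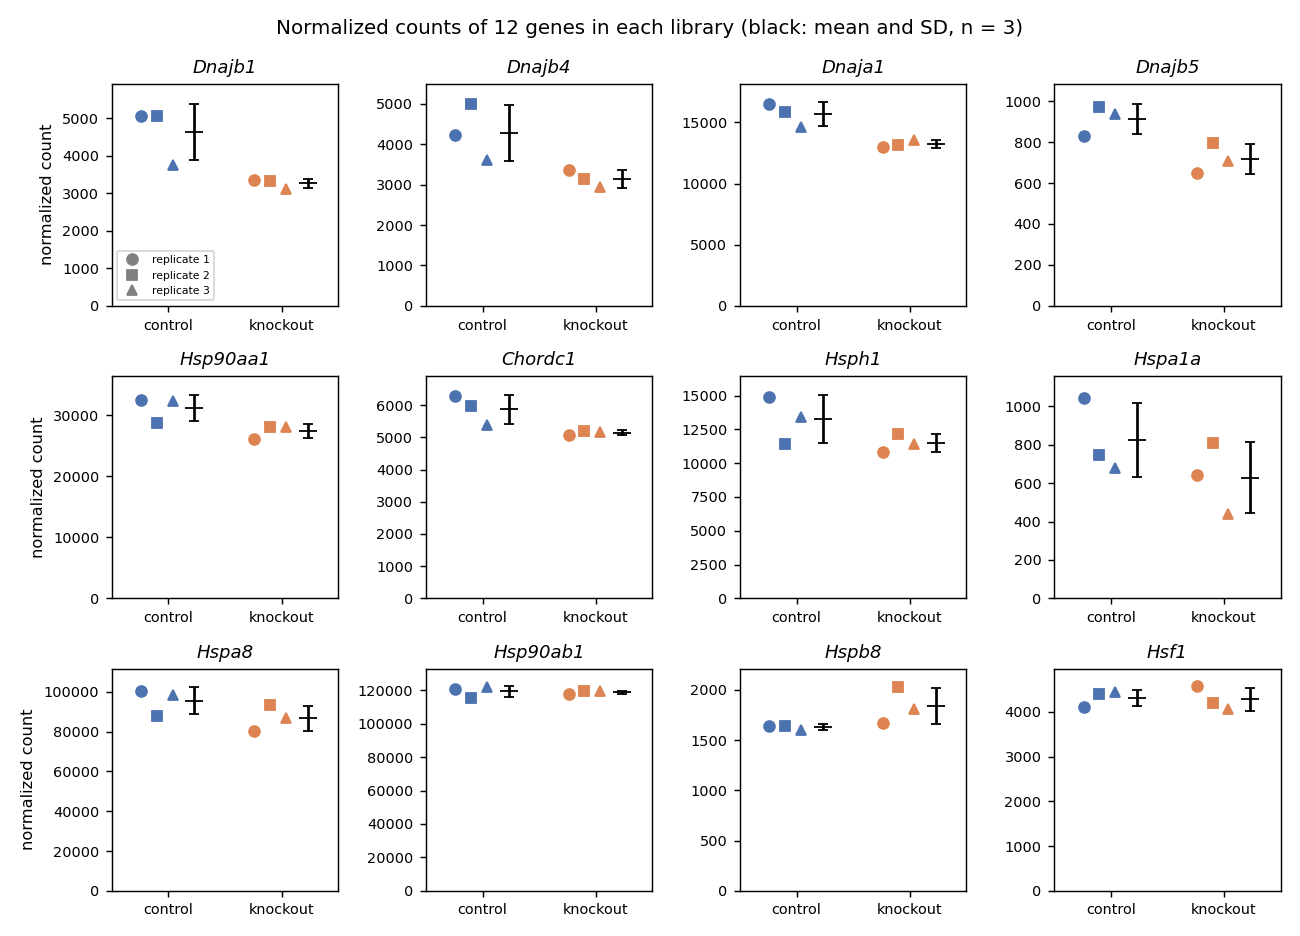
Normalized counts (y axes, from 0) of 12 genes in each library, by group on the x axes; symbols mark the replicate number, and black bars the mean and SD of 3 libraries. The groups are apart for Dnajb1, Dnajb4, Dnaja1, Dnajb5, Hsp90aa1 and Chordc1, lower in the knockouts, and for Hspb8, higher in the knockouts.

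None of the 6 genes of the HSP90 system passed in DESeq2 or edgeR (3 had an unadjusted p under 0.05 and a lower mean in DESeq2, against 5.03% of all genes), but for 5 of them every knockout library lay below every control library, against 8.23% of all genes, and the median log2 fold change was -0.18. The exception was Hsp90ab1, the constitutive form and, per length, the highest of the 37 genes. Hsp90ab1 gave 120617, 115603 and 121894 normalized counts in the controls against 117624, 119266 and 119432 in the knockouts, with overlap, and the 95% interval of its change ran from -8.08% to 7.71%. Hsp90aa1 (chromosome 12, 110690605 to 110702728), the inducible form, gave 32592, 28812 and 32394 in the controls against 26116, 28168 and 28039 in the knockouts. Control replicate 2 lay close to the knockouts; the log2 fold change was -0.19 ± 0.08 (SE; adjusted p = 0.231 in DESeq2, and 0.0262 without control replicate 2). Within each library, the Hsp90aa1 count was 27.0%, 24.9% and 26.6% of the Hsp90ab1 count in the controls and 22.2%, 23.6% and 23.5% in the knockouts. The inducible form thus stood lower against the constitutive one in each knockout library, although 47.5% of the 50-base words of Hsp90aa1 recur in other transcripts, mostly of Gm12346, which makes its count uncertain.

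Among the HSP90 cochaperones, Chordc1, which encodes the zinc-binding protein morgana, gave 6270, 5972 and 5378 normalized counts in the controls against 5067, 5204 and 5162 in the knockouts. The 3 knockout libraries differed by less than the controls did, and the log2 fold change of -0.19 ± 0.08 (SE) passed only without control replicate 3 (DESeq2 adjusted p = 0.00185, against 0.274 with all libraries). Stip1, the adaptor that passes substrates from HSP70 to HSP90, gave 11112, 11077 and 12777 in the controls against 9948, 10403 and 10587 in the knockouts. Stip1 had a log2 fold change of -0.18 ± 0.08 (SE; in DESeq2 the adjusted p was 0.348). Fkbp4, which tethers steroid receptors to dynein, had -0.18 ± 0.09, and Ahsa1, the activator of HSP90's ATPase, -0.13 ± 0.07 (SE).

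In the HSP70 class, 0 of 7 genes passed in DESeq2 or edgeR, against 0.657% of all genes that fell in DESeq2. Hspa13 alone (14.3%) had an unadjusted p under 0.05 with a lower mean in DESeq2, against 5.03% of all genes. A log2 fold change below 0 was found for 6 (85.7%), against 51.6% of all genes. Hspa1a and Hspa1b encode the classical stress-inducible HSP70. Hspa1a gave 1041, 748 and 678 normalized counts in the controls against 640, 809 and 438 in the knockouts, and the groups overlapped. Hspa1b showed the same order of libraries at the extremes, at 847, 636 and 530, then 571, 687 and 428. The highest library was control replicate 1 and the lowest knockout replicate 3 for both. Their log2 fold changes were -0.39 ± 0.22 and -0.26 ± 0.21 (SE), with DESeq2 adjusted p-values of 0.53 and 0.748 and 95% intervals of -43.4% to 3.33% and -37.0% to 11.4%. The SEs were the largest of the 37. As 58.8% of the 50-base words of Hspa1a also occur in Hspa1b transcripts and 62.3% in reverse, the split between the 2 genes is uncertain.

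Hspa8, the constitutive HSP70 that also uncoats clathrin vesicles, gave 100446, 88003 and 98489 normalized counts in the controls against 80500, 93174 and 86774 in the knockouts. The groups overlapped, and the log2 fold change was -0.14 ± 0.08 (SE; adjusted p = 0.565 in DESeq2). Hspa8 shares 39.4% of its 50-base words with other transcripts, so its count is uncertain. Hspa13 gave 11493, 11309 and 15401 in the controls against 9863, 10348 and 11410 in the knockouts. Control replicate 3 was far above the rest, and the log2 fold change of -0.27 ± 0.12 (SE) did not pass (DESeq2 adjusted p = 0.306). Hspa2, best known from sperm cells, had -0.12, the mitochondrial Hspa9 -0.05, and Hspa14, which acts at the ribosome, 0.00.

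The HSP110 proteins are nucleotide exchange factors of HSP70. None of the 3 genes passed in DESeq2 or edgeR with all libraries, against 0.657% of all genes that fell in DESeq2. Hsph1 alone (33.3%) had an unadjusted p under 0.05 with a lower mean in DESeq2, against 5.03% of all genes. Hsph1, the inducible one, gave 14926, 11425 and 13410 normalized counts in the controls against 10843, 12183 and 11435 in the knockouts. Control replicate 2 lay among the knockouts, and without it the DESeq2 adjusted p was 0.0466, against 0.416 with all libraries (log2 fold change -0.21 ± 0.10, SE). Hspa4 had a log2 fold change of -0.13 and Hspa4l of 0.01.

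The small heat shock proteins, which hold unfolded proteins without using ATP, had a median log2 fold change of 0.14. In DESeq2 0 of 3 passed, against 2.19% of all genes, and 0 passed in edgeR. An unadjusted p under 0.05 in DESeq2 was reached by 0, against 5.03% of all genes lower and 6.51% higher. Hspb8, the partner of BAG3 in selective autophagy, gave 1646, 1646 and 1602 normalized counts in the controls against 1670, 2028 and 1814 in the knockouts. Each knockout library was above each control, with a log2 fold change of 0.17 ± 0.10 (SE), which did not pass (DESeq2 adjusted p = 0.556). Hspb6, a muscle-rich form, had 0.14 ± 0.12, with overlapping groups; the summed level of 8 smooth muscle and pericyte genes ran from 41760 to 47187 in controls and from 39326 to 44857 in knockouts. That sum is mostly Rgs5; of the 7 genes of the list given an adjusted p, 5 were below 0 and 0 passed in DESeq2 (2 at an unadjusted p under 0.05) or edgeR. Each knockout lay below each control for Myh11 and Acta2 (log2 fold changes -0.25 and -0.29) and above each control for Pdgfrb (0.13). Hspb1, the inducible HSP27 homologue, gave 842, 862 and 785 in the controls against 783, 839 and 727 in the knockouts, a log2 fold change of -0.08 ± 0.12 (SE). Of its 50-base words 50.1% recur elsewhere, mostly in Hsp25-ps1, so its count is uncertain.

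Bag3, an inducible exchange factor that links HSP70 to autophagy, gave 4146, 4597 and 3809 normalized counts in the controls against 3559, 3934 and 3580 in the knockouts. The groups overlapped by the third control and the second knockout library, and the log2 fold change was -0.18 ± 0.10 (SE; adjusted p = 0.464 in DESeq2). Bag1, the founding family member, had -0.05. The transcription factor genes differed little: Hsf1 gave 4110, 4401 and 4442 in the controls against 4569, 4202 and 4068 in the knockouts, with a 95% interval of its change from -11.3% to 10.8%. Hsf2 had a log2 fold change of 0.01 ± 0.10 (SE). HSF1 is controlled through its protein state, which RNA counts do not measure.

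The chaperonin genes had small differences. Cct2 gave 12426, 12987 and 13572 normalized counts in the controls against 11401, 12130 and 11900 in the knockouts. The groups did not overlap, with a log2 fold change of -0.14 ± 0.07 (SE; in DESeq2 the adjusted p was 0.42). Cct3, Tcp1 and Cct5, other subunits of the same ring, had -0.12, -0.08 and -0.07. Hspe1, which encodes the lid of the mitochondrial chaperonin, gave 2817, 3347 and 3524 in the controls against 2699, 2601 and 3091 in the knockouts, with overlap and a log2 fold change of -0.21 ± 0.11 (SE; in DESeq2 the adjusted p was 0.484). Hspd1, its barrel, had -0.14 ± 0.08 and no overlap, and the exons of the 2 divergent genes overlap by 112 bases. These counts are uncertain, as are those of Dnajb6 and Tcp1: 42.1% of the 50-base words of Hspd1, 22.8% of Hspe1, 21.0% of Dnajb6 and 13.9% of Tcp1 recur in other transcripts.

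The libraries of 1 genotype did not order the classes alike. Of the 37 genes, 32 had their highest value in a control library and 31 their lowest in a knockout library. Control replicate 3 held the highest value for 18 genes, control replicate 1 for 8 and control replicate 2 for 6. For the 8 genes set apart as heat-inducible (Hspa1a, Hspa1b, Hsph1, Dnajb1, Hspb1, Bag3, Hsp90aa1 and Chordc1), the highest library was control replicate 1 for 5 and control replicate 2 for 3, and never control replicate 3. For all 4 CCT genes it was control replicate 3. Averaged over the 8 inducible genes, the deviation from the mean of the gene was 0.28, 0.11 and -0.01 on the log2 scale in the controls and -0.13, 0.01 and -0.25 in the knockouts. Over the CCT genes it was 0.01, 0.01 and 0.13 in the controls and -0.08, -0.06 and -0.01 in the knockouts. The averages of the inducible genes thus lay further apart within each genotype than those of the chaperonin genes.

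**Figure D3:**
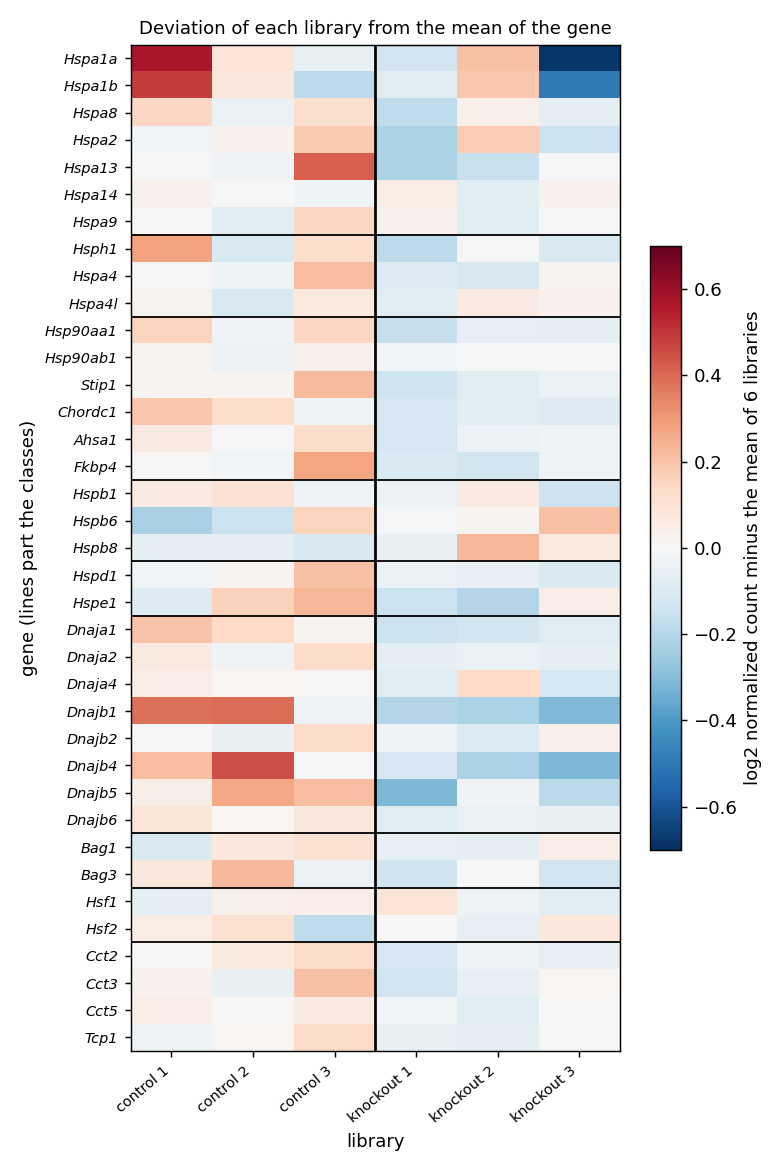
Log2 normalized count of each of the 37 genes (rows, parted by class) in each of the 6 libraries (columns), less the mean of the gene over the libraries; red is above and blue below. Hspa1a and Hspa1b are highest in control replicate 1 and lowest in knockout replicate 3, and the 4 CCT genes are highest in control replicate 3.

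Immediate early genes, which cells switch on within minutes of a stimulus, were set beside these values. All 12 such genes had a log2 fold change above 0 (median 0.17), where 51.6% of all genes tested were below 0. Among them 1, Fosb, rose in DESeq2 (adjusted p = 0.00286, and 0.187 in edgeR), against 1.53% of all genes. Their summed level was 90540, 85619 and 64183 normalized counts in the controls and 88493, 99263 and 86991 in the knockouts. Control replicate 3 was thus the lowest library in them. The part of these genes in the results was not tested. Without knockout replicate 1, the library with the highest sum of hepatocyte genes, the median log2 fold change of the 37 genes was -0.11 and that without knockout replicate 3 was -0.13, against -0.13 with all libraries. Without control replicate 3 it was -0.08.

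Per length, the 37 genes covered a wide range of abundance. Hsp90ab1 was highest, at 380 ± 14.7 CPM (counts scaled to the total of the library) per kilobase of exon in controls, and 380 ± 7.74 in knockouts (SD over 3 libraries), followed by Hspa8 at 213 ± 17.6 and 194 ± 12.5 and Hsp90aa1 at 76.0 ± 5.97 and 67.0 ± 2.95. On the same scale the inducible HSP70 genes were near the bottom, with Hspa1a at 2.66 ± 0.703 and 2.03 ± 0.564 and Hspa1b at 2.30 ± 0.619 and 1.92 ± 0.409. Dnajb5, at 1.47 ± 0.0926 and 1.16 ± 0.104, was lower. The rank of the HSP70 pair is uncertain, since 66.3% of the 50-base words of Hspa1a and 62.3% of those of Hspa1b recur in other transcripts and reads with several positions may not have been counted. Dnajb1 was in the middle, at 13.8 ± 2.52 and 9.77 ± 0.274, above Dnajb4 at 4.67 ± 0.797 and 3.44 ± 0.222. All 37 genes had at least 429 counts in each library. Together they took 0.444% to 0.508% of all counts.

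**Figure D4:**
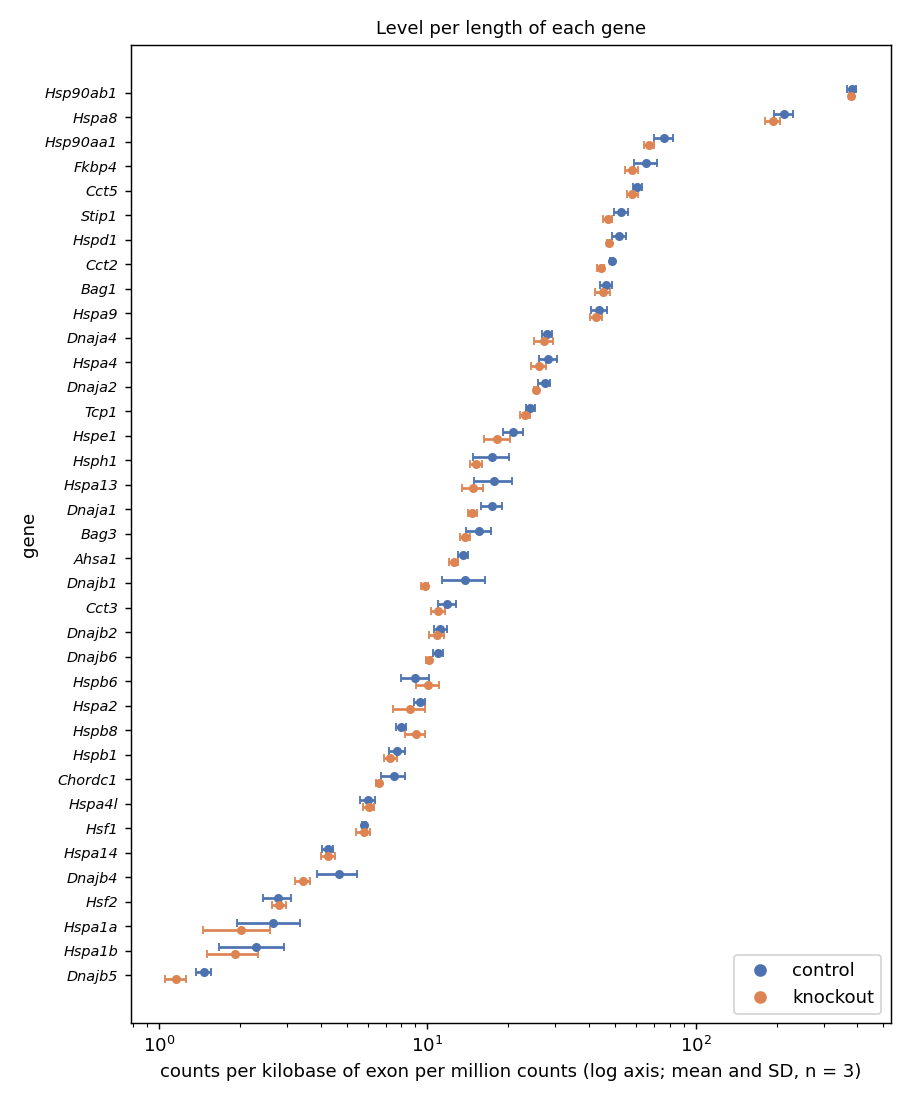
Level of each of the 37 genes per length, in CPM per kilobase of exon on a log x axis, as mean and SD of 3 control (blue) and 3 knockout (orange) libraries; genes on the y axis are sorted by their mean. Hsp90ab1 and Hspa8 stand above the rest, and Hspa1a, Hspa1b and Dnajb5 are lowest as counted.

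Further genes of the same machinery were taken from a list of 55 other chaperone and cochaperone genes, of which 53 were given an adjusted p. Among these, 1 rose (1.89%, against 1.53% of all genes), 0 fell in DESeq2 (against 0.657%) and 0 passed in edgeR. An unadjusted p under 0.05 with a lower mean in DESeq2 was reached by 4 (7.55%), against 5.03% of all genes. The median log2 fold change was -0.06, and 34 of 53 (64.2%) were below 0, against 51.6% of all genes. Each knockout library lay below each control for 10 (18.9%), against 8.23% of all genes, and above each control for 2 (Fkbp5 and Dnajb12, 3.77%), against 9.06%. The gene that rose was Fkbp5, the cochaperone of steroid receptors that is itself a glucocorticoid-induced gene. Fkbp5 gave 11111, 9427 and 14111 normalized counts in the controls against 18216, 20020 and 20447 in the knockouts. All knockouts lay above all controls, with a log2 fold change of 0.76 ± 0.13 (SE; in DESeq2 the adjusted p was 1.42e-06; edgeR adjusted p = 0.114), and it passed in 12 of 13 alternatives. Within each library its count was 61.8%, 53.5% and 65.0% of that of Fkbp4, its competitor on receptor complexes, in the controls and 110%, 123% and 117% in the knockouts.

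The lowest fold change in that list was of Hsf4, the heat shock factor of the lens, at a value on the log2 scale of -0.35 ± 0.23 (SE; in DESeq2 the adjusted p was 0.628). Of 10 other CCT and prefoldin subunits, 9 (90%) were below 0, against 51.6% of all genes, with a median of -0.13, close to the CCT genes above. None passed in DESeq2 or edgeR. Cct6a alone (10%) had an unadjusted p under 0.05 with a lower mean in DESeq2, against 5.03% of all genes. Of 7 other mitochondrial chaperone genes 5 were above 0, with a median of 0.01. Of 4 other genes placed in the list of small heat shock proteins, 3 were above 0, each by less than its SE. Cryab had 0.09 ± 0.14, Hspb11 0.10 ± 0.15, Hspb2 0.01 ± 0.35 and Hspb7 -0.09 ± 0.22 (SE). Hspb2 had a mean of only 66.6 normalized counts in controls and 67.2 in knockouts.

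**Figure D5:**
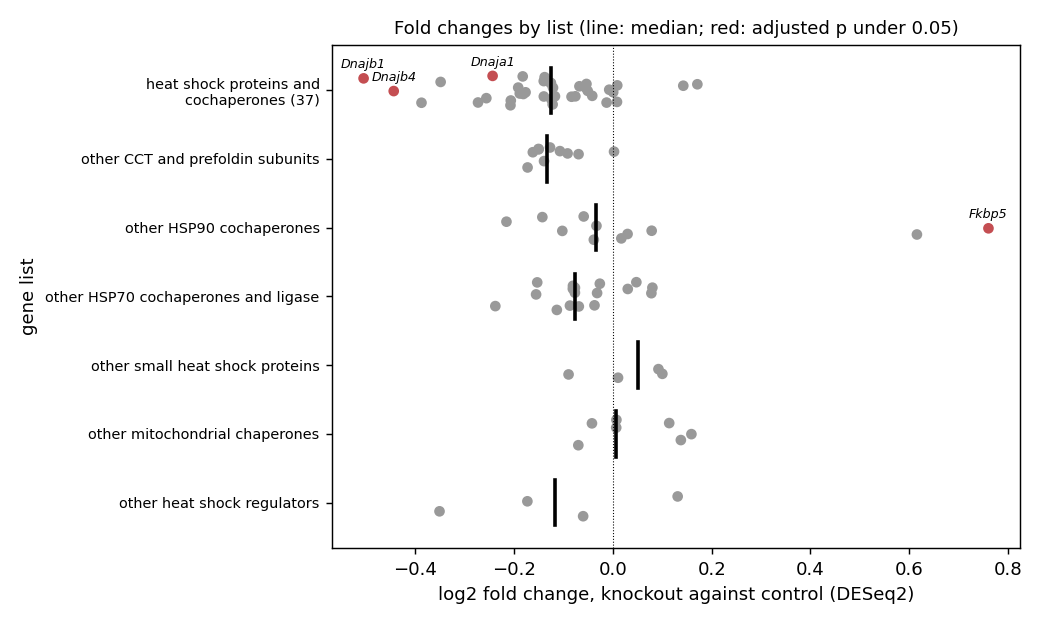
Log2 fold change, knockout against control (x axis), of the 37 genes and of the 6 lists of other chaperone genes (y axis), with the median of each list as a black line and genes past an adjusted p of 0.05 in red. Fkbp5 at 0.76 is the point farthest right, followed by Aarsd1 at 0.62, which did not pass; in the top row Dnajb1 and Dnajb4 lie farthest left, and 4 genes that did not pass lie between them and Dnaja1.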

How the data were processed

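Polyadenylated RNA of isolated islets was sequenced, per the labels' protocols, and the authors deposited 1 table of raw read counts per gene for the 6 libraries. Per the submitters' processing notes, FastQC, STAR, featureCounts and DESeq2 were used with mm10; the strand setting and the handling of reads with several positions are not given in the sources used here. All 55536 gene identifiers and symbols are those of GENCODE M21 (GRCm38), used for coordinates and exon lengths. DESeq2 1.42.0 (R 4.3.3), the test the design text names, was fitted to the 25210 genes with at least 10 counts in total, genotype as the only term; an adjusted p under 0.05 was the threshold. Named with every library's value were genes with an unadjusted p under 0.05 or a call in any fit, the inducible subset, Hspa8, Hsp90ab1, Hsf1 and the largest difference of each class. The members and lists were chosen with earlier results of these data known. The 13 alternatives included edgeR 4.0.16 with TMM and each library left out. The fits were tested on a single set of simulated data. Fold changes were recovered, and the share of false calls exceeded the nominal level, more in DESeq2 than in edgeR. Replicates of a group differed by 40.0 to 120 times the sampling noise (chi-square over degrees of freedom), more than counting noise alone would give. This does not tell separate mice from separate preparations of the same RNA.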

Additional observations from a re-analysis of the deposited data

How the results depend on the processing

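The number of the 37 genes past the threshold was 3, 0 in edgeR and 0 to 4 without 1 library; total-count factors, no filter on low counts and no independent filtering gave 2, without Dnaja1. For the other chaperone genes it was 1, 0 in edgeR and 1 to 2 without 1 library (Ppid joined without control replicate 3). The median log2 fold change of the 37 genes ran from -0.16 to -0.081 without 1 library. Over all genes, 389 passed, against 29 in edgeR, 952 without control replicate 3 and 153 without knockout replicate 1. With the replicate number as a block 2 of the 37 passed, Dnajb1 and Dnajb4 (all genes, lower: 0.816%), and Dnaja1 did not (DESeq2 adjusted p = 0.0816); same-numbered libraries did not deviate together (correlations of -0.048, -0.059 and 0.010, and 1 of 3 controls correlated best with its own number). Of 481 fold changes of the 37 genes under the alternatives, 440 kept direction and side of the threshold, 20 no longer passed, 3 newly passed and 18 reversed, all of genes near 0: Hspa14 was -0.00021 under the block and -0.025 to 0.040 without 1 library, and in the same fits Hspa4l ran from -0.041 to 0.047, Hsf1 from -0.063 to 0.022, Hspa9 from -0.10 to 0.013, Hsp90ab1 from -0.030 to 0.0084, Dnajb2 from -0.094 to 0.0011, Hsf2 from -0.070 to 0.065 and Dnaja4 from -0.13 to 0.0069. The cause was not tested. Scaling moved the median of all genes by less than 0.1. The lowest count of any of the 37 genes in a library was 429, and each group had 3 libraries.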
